A study of Mus musculus with 48 samples.

Results

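The hypothalamus of hind-limb-unloaded mice kept under noise with low air pressure was compared with that of unloaded mice kept in quiet at normal pressure. The members are 12 of the 48 RNA-seq libraries of the series, chosen by their labels alone. In 6 libraries the mice were unloaded and exposed to 85 dBA at 0.9 atm, and in the other 6 they were unloaded at 10 dBA and normal pressure. All were male C57BL/6 mice (C57BL/6N in the series' design text), labelled late in period and 3 months old, although the design text gives 2 months for the whole series. No genotype or drug was involved. Each library holds the pooled hypothalami of 3 mice, so 18 mice stand behind each group, and the spread between libraries is a spread between pools. The libraries of a group carry the title numbers 1, 5, 9, 13, 17 and 21, whose meaning the labels do not give. Both exposures came together in the noise group, so that noise and low pressure cannot be told apart, and each condition is a single series. The deposited values are RPKM (reads scaled for transcript length and for the mapped reads of the library).

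In hind-limb unloading the tail is suspended so that the hind limbs bear no weight, a ground model of weightlessness. Noise is a stressor that reaches the hypothalamus through auditory and limbic pathways, and the hypothalamus answers stressors through peptide neurons that set water balance, feeding, arousal and pituitary output. Neurons that have fired recently carry transcripts of immediate early genes such as Fos, which are switched on within minutes of a stimulus and decay quickly.

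The peptides that define the hypothalamus were present in all 12 libraries: Avp was at or above 1080 RPKM, Oxt at or above 660 RPKM, and Hcrt at or above 153 RPKM. The hormone genes of the anterior pituitary were low, with Gh at most 3.15 RPKM and Prl at most 0.660 RPKM. Depth recovered from the steps between low values was 35.8 to 41.3 M reads a library.

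Libraries of the noise group did not stand together. The 13 mitochondrially encoded protein genes took 31.0%, 10.5%, 46.9%, 50.0%, 47.4% and 16.0% of the summed RPKM in noise libraries 1, 5, 9, 13, 17 and 21. In the quiet libraries, in the same order, they took 12.7%, 13.8%, 13.9%, 13.8%, 13.4% and 16.6%. Noise libraries 9, 13 and 17 were far above all quiet libraries, library 1 lay between, library 21 was inside the quiet range and library 5 below it. The means were 33.6% ± 17.2 (SD, n = 6) and 14.0% ± 1.32 (SD, n = 6), a difference of 19.6 points (two-sided exact permutation test, p = 0.048, where the smallest p possible is 0.0022). With the libraries paired by title number the same 19.6 points did not pass (exact permutation of signs, p = 0.12). Across the other 6 series the mean share ran from 11.5% to 44.5%. Without libraries 9, 13 and 17 the difference was 5.14 points (exact permutation test, p = 0.52). The difference over the quiet library of the same number was positive for 4 of 6 numbers.

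**Figure D1:**
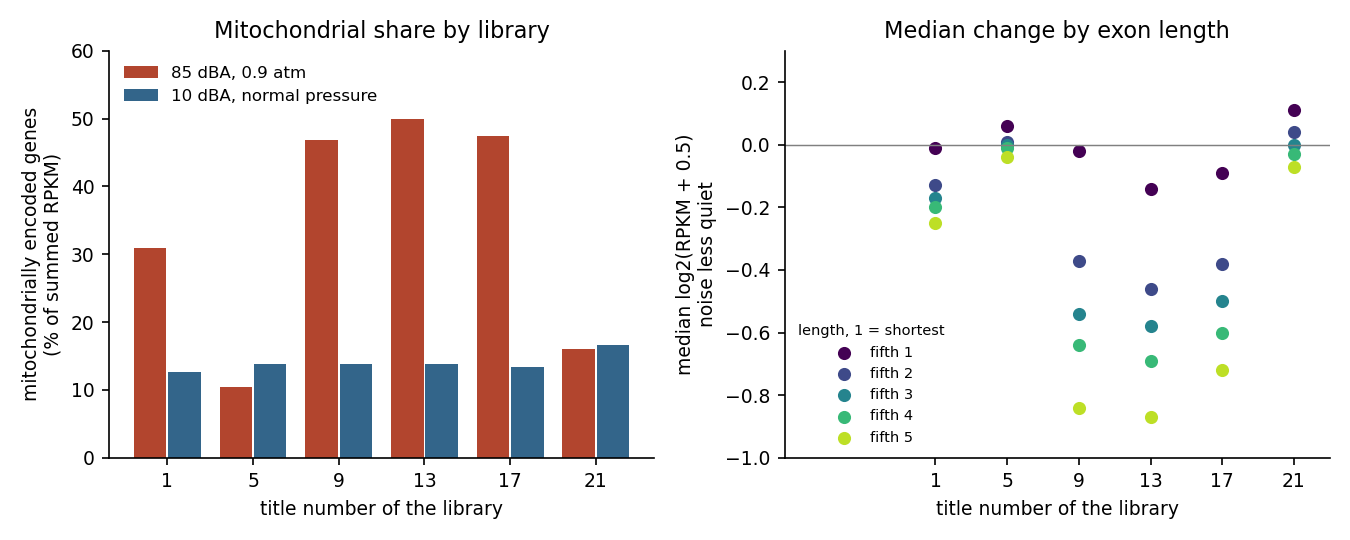
The left panel plots the share of summed RPKM (percent) in mitochondrially encoded genes for each of the 12 libraries by title number, and the right panel plots the median log2 difference between noise and quiet for 5 classes of exon length, from shortest to longest, with 1 point for each class at each title number. Noise libraries 9, 13 and 17 are between 46.9% and 50.0% mitochondrial, and their medians are lowest in the longest genes.

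RPKM is relative to a library's mapped reads, so a gene's value also depends on the other genes of that library. Of 13685 genes tested with limma (mean RPKM of at least 0.5, log2 of RPKM + 0.5), 924 (6.75%) were higher under noise with low pressure and 6238 (45.6%) were lower at a Benjamini-Hochberg adjusted p below 0.05, and the median over all genes was -0.28 on the log2 scale. After quantile normalization, which gives every library the same distribution, 2713 (19.8%) were higher and 3175 (23.2%) lower, with a median of -0.03, so that 46.1% of calls were higher against 12.9% as deposited. With the mitochondrial genes removed and the libraries rescaled to equal RPKM sums, 1304 genes were higher and 6354 lower, with a median of -0.24, near the values as deposited. Of the 924 higher genes 896 were called higher in all 4 scalings tried, and of the 6238 lower genes 2930 were called lower in all 4. Without noise libraries 9, 13 and 17, which leaves 3 noise libraries, 0 genes passed in either direction and 765 had an unadjusted p below 0.05. With the mitochondrial share as a covariate 0 passed as well, and 2286 had an unadjusted p below 0.05. Leaving out noise library 9 alone gave 610 higher and 4046 lower genes, and leaving out noise library 13 gave 716 and 3773. Groups without overlap were common: every noise library was above every quiet library for 395 genes (2.89%) and below for 1556 (11.4%).

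Differences also followed transcript length. In the shortest 20% of genes by exon length (255 to 2484 bases) the median log2 difference was -0.02, with 18.8% of genes higher and 14.2% lower. In the longest 20% (7701 to 41324 bases) it was -0.47, with 1.33% higher and 72.2% lower. By title number, the median of the longest class was -0.84, -0.87 and -0.72 for numbers 9, 13 and 17, and -0.25, -0.04 and -0.07 for numbers 1, 5 and 21. The part of the mitochondrial share and of transcript length in the gene results was not tested, and in a bulk sample fewer cells of a type and less RNA per cell cannot be told apart. For many of the lists and genes below, the value without noise libraries 9, 13 and 17 is given as well.

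A second unevenness lay in the quiet group. Quiet libraries 1 and 5 had 245 and 253 RPKM summed over 10 markers of the thalamus, which borders the hypothalamus, and the other 4 quiet libraries had 313 to 338. The noise libraries had 225 to 281. Gpr151, a receptor known from the habenula, was at 0.546 and 0.482 RPKM in quiet libraries 1 and 5, at 6.06 to 11.3 RPKM in the other quiet libraries, and at 0.172 to 1.20 RPKM under noise. Plekhg1 was at 2.46 and 2.56 RPKM in quiet libraries 1 and 5 and at 5.68 to 6.94 RPKM in the rest of the group. The predicted gene Gm5741 had the same split, at 0 and 0.0766 RPKM against 7.48 to 18.8 RPKM. Of the 10 thalamus markers 8 fell and 0 rose, where 45.6% of all genes fell and 6.75% rose. Their median was -0.87, against -0.28 over all genes. After quantile normalization 5 of the 10 fell (median -0.62), where 23.2% of all genes fell. Without the 3 noise libraries of highest mitochondrial share their median was -0.70, against -0.07 over all genes. Of the 10 genes 6 are in the longest length class, in which 72.2% of all genes were lower. None of the 10 had groups without overlap, where 11.4% of all genes had every noise library below every quiet library. Gpr151 (log2 difference -2.02 ± 0.44 SE, adjusted p = 0.0026) and Gm5741 (-2.48 ± 0.68 SE, adjusted p = 0.0048) were among the 12 largest falls, and neither separated the groups.

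Avp, Oxt, Agrp and Npy, peptide genes of magnocellular and arcuate neurons, rose. Avp encodes vasopressin, the antidiuretic hormone, which paraventricular neurons also release as a partner of corticotropin-releasing hormone. It stood at 3195, 3028, 5961, 6249, 5324 and 3376 RPKM in noise libraries 1, 5, 9, 13, 17 and 21, and at 1686, 1826, 1080, 1197, 1135 and 1313 RPKM in the quiet libraries. Every noise library was above every quiet library, and the 3 libraries with the highest mitochondrial share were the highest for Avp. The means were 4522 ± 1483 and 1373 ± 310 RPKM (SD, n = 6 each), and the log2 difference was 1.68 ± 0.24 (SE, adjusted p = 0.0002), or 3.21-fold. It was 0.86 after quantile normalization (adjusted p = 0.012) and 1.22 without noise libraries 9, 13 and 17. Avp lies at chr2:130580620-130582554 on the minus strand (GRCm38, GENCODE M21), with an exon length of 577 bases.

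Oxt, its neighbour on chromosome 2 (chr2:130576173-130577054, plus strand), encodes oxytocin. Its level was 1365, 1770 and 2256 RPKM (lowest, median and highest) under noise and 660, 735 and 1091 RPKM in quiet, with no overlap. The log2 difference was 1.10 ± 0.18 (SE, adjusted p = 0.0006), and 0.81 without the 3 libraries. In both genes quiet libraries 1 and 5, the libraries low in thalamus markers, were the highest of their group. With the summed thalamus markers as a covariate the log2 difference was 1.55 for Avp (adjusted p = 0.0015) and 1.02 for Oxt (adjusted p = 0.0049).

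Agrp and Npy mark the hunger neurons of the arcuate nucleus. Agrp encodes an antagonist of melanocortin receptors, and Npy encodes neuropeptide Y, which drives feeding. Agrp, the largest rise of the genes named here, stood at 40.4, 21.4, 78.7, 83.1, 57.1 and 21.9 RPKM in noise libraries 1 to 21 and at 12.5, 17.3, 8.28, 8.81, 5.77 and 7.95 RPKM in the quiet ones. The groups did not overlap, and noise libraries 5 and 21 were the nearest to the quiet range. Means were 50.4 ± 27.1 and 10.1 ± 4.14 RPKM (SD, n = 6 each), with a log2 difference of 2.15 ± 0.32 (SE, adjusted p = 0.0002), 2.42 after quantile normalization and 1.37 without the 3 libraries. Npy was at 71.6, 171 and 281 RPKM (lowest, median and highest) under noise and 49.2, 58.2 and 81.4 RPKM in quiet. Noise library 5, at 71.6 RPKM, lay inside the quiet range. Its log2 difference was 1.36 ± 0.22 (SE, adjusted p = 0.00053), and 0.80 without the 3 libraries.

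Other hypophysiotropic genes rose by less. Gnrh1, which encodes the releasing hormone of the reproductive axis, rose by 0.91 ± 0.24 (log2, SE), Ghrh, for the growth hormone releasing hormone, by 0.57 ± 0.19, and Sst, for somatostatin, by 0.38 ± 0.12, with overlapping groups in each. Without the 3 libraries their log2 differences were 0.35, 0.35 and 0.18. Cartpt, a satiety peptide, rose by 0.41 ± 0.13, with 73.6 to 123 RPKM under noise and 58.4 to 77.1 RPKM in quiet. Crh, which starts the stress axis, was at 5.43 to 9.25 RPKM under noise and 5.95 to 9.80 RPKM in quiet, and its log2 difference of -0.07 ± 0.17 (SE) did not pass the test (adjusted p = 0.73). Nor did Trh pass, at 0.04 ± 0.19 (adjusted p = 0.86), or Pomc, the precursor of melanocortins, at 0.54 ± 0.33 (adjusted p = 0.16). The arousal peptide gene Hcrt was at 153 to 374 RPKM under noise and 221 to 354 RPKM in quiet (log2 difference -0.14 ± 0.19, adjusted p = 0.52).

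Pmch, which encodes melanin-concentrating hormone of the lateral hypothalamus, fell, with its low values in the same 3 libraries. It was at 62.7, 138 and 76.3 RPKM in noise libraries 9, 13 and 17, and at 333 to 380 RPKM in noise libraries 1, 5 and 21, where the quiet range was 317 to 420 RPKM. The log2 difference was -1.01 ± 0.39 (SE, adjusted p = 0.031). It was -0.06 without the 3 libraries, and 0.14 in the fit with the mitochondrial covariate (adjusted p = 0.82).

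**Figure D2:**
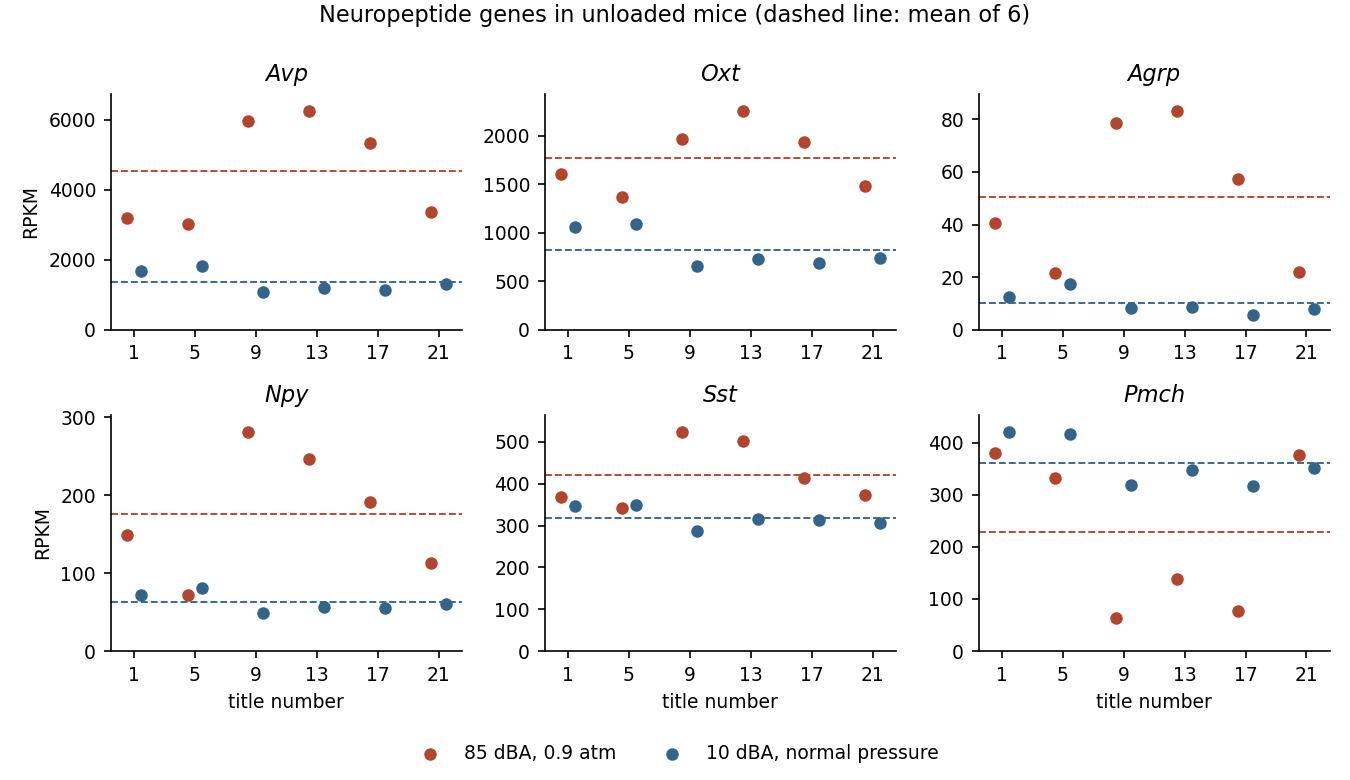
RPKM of 6 peptide genes in each noise and quiet library, by title number, on linear axes from 0. Every noise library is above every quiet library for Avp, Oxt and Agrp, while Pmch is low in noise libraries 9, 13 and 17 only.

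Counted by list, 5 of the 8 tested genes for neurohypophysial and releasing hormones rose and 0 fell (median 0.47), and 3 of 11 feeding and arousal peptides rose and 1 fell (median 0.18), where 6.75% of all genes were higher and the median over all genes was -0.28. Without the 3 libraries the medians were 0.29 and 0.09. All 8 of the former and 10 of 11 of the latter belong to the shortest 20% of genes by length. None of the 5 opioid and tachykinin precursors passed. In the machinery that processes and stores peptides 7 of 12 genes fell and 0 rose (median -0.35), near the 45.6% and -0.28 of all genes. After quantile normalization 5 of the 12 fell (median -0.25), where 23.2% of all genes fell and the median of all genes was -0.03. Without the 3 libraries the list's median was -0.12. Cpe, the carboxypeptidase that trims prohormones, was at 540 to 752 RPKM under noise and 781 to 862 RPKM in quiet, with a log2 difference of -0.36 ± 0.12 (SE, adjusted p = 0.015). Pcsk2, a prohormone convertase, fell by 0.51 ± 0.14. Without the 3 libraries their log2 differences were -0.20 and -0.22. Of these 12 genes 3 belong to the shortest class.

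Most immediate early genes fell. Of 17 tested (18 are listed), 15 fell, against 45.6% of all genes, and 1 rose, with a median log2 difference of -0.98. After quantile normalization 13 fell and 1 rose (median -0.75), where 23.2% of all genes fell and 19.8% rose. Without noise libraries 9, 13 and 17 the list's median was -0.67, where the median of all genes was -0.07. The list holds 5 genes of the shortest length class and 1 of the longest. By title number the list's median was lowest for numbers 13 (-1.90), 17 (-1.66) and 21 (-1.14), and -0.30 for numbers 5 and 9.

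Fos, a partner in the AP-1 transcription factor and the usual marker of recent neuronal firing, is at chr12:85473890-85477273 (plus strand). It stood at 7.99, 9.48, 5.10, 4.53, 4.02 and 7.22 RPKM in noise libraries 1 to 21 and at 30.1, 20.7, 8.23, 26.0, 29.6 and 28.9 RPKM in the quiet libraries. Quiet library 9 was low and lay inside the noise range, and the other 5 quiet libraries were all above every noise library. The means were 6.39 ± 2.17 and 23.9 ± 8.43 RPKM (SD, n = 6 each), with a log2 difference of -1.77 ± 0.29 (SE, adjusted p = 0.0006). It was -1.51 without the 3 libraries, -1.53 after quantile normalization, and -1.57 in the fit with a mitochondrial covariate (unadjusted p = 3.0e-05, adjusted p = 0.069).

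Promoters of immediate early genes are shown for the letters they share and do not share: those of Fos, Nr4a1 and Dusp1, which fell and hold a short motif, of Jun, which fell and lacks it, and of Npas4, which did not pass and holds it. They are the 250 bases before the start given by RefSeq (GRCm38.p6), from the 5′ to the 3′ end of the gene's strand. Capitals mark TGACG or its reverse complement CGTCA, the core of the element that CREB binds, and the TGACGTCA that holds both. Fos is at chr12:85473640-85473889 on the plus strand, Nr4a1 at chr15:101266596-101266845 on the plus strand, Dusp1 at chr17:26508473-26508722 on the minus strand, Jun at chr4:95052223-95052472 on the minus strand and Npas4 at chr19:4989972-4990221 on the minus strand.
Fos: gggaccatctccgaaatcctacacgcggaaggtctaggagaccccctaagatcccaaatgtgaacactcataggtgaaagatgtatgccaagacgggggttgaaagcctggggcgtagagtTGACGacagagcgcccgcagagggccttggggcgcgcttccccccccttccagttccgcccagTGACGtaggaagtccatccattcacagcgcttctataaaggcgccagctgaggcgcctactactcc
Nr4a1: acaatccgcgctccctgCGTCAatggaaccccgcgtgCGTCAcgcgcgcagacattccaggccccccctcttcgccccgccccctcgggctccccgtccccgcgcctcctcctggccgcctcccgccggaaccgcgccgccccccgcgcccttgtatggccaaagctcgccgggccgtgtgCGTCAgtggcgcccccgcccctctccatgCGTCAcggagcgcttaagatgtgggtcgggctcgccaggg
Dusp1: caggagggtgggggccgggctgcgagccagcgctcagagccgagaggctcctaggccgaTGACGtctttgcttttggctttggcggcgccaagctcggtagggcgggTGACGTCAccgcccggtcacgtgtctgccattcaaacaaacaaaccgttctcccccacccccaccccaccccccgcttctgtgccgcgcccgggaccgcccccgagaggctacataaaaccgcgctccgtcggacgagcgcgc
Jun: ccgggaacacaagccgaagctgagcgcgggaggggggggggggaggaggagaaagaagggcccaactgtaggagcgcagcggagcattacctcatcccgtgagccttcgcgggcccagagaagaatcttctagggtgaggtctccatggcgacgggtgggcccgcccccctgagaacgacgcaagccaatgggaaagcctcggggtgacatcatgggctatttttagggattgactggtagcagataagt
Npas4: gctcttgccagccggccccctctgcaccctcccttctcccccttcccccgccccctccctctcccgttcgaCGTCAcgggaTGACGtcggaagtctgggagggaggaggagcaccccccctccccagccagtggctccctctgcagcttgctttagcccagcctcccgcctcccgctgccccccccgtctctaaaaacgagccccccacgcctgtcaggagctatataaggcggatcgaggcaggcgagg
Of the 11 genes of the list that fell and have a promoter used here (Egr1, Egr3, Arc and Ier2 have none), 9 hold TGACG on either strand, and so do 17.8% of 32851 mouse promoters of this length. Of the 3 others with a promoter here Npas4 and Egr2 hold it as well, and Jund does not. The whole TGACGTCA is in 2 of the 11, Dusp1 and Btg2, and in 1.55% of all promoters. A CArG box, the site of serum response factor, is in 0 of the 11 windows, in that of Egr2, and in 1.47% of all. Sites farther than 250 bases before the start lie outside these windows and were not searched. In Fos the matches lie 66 and 129 bases before the start, and Nr4a1 has 4 matches, 40 to 233 bases before it. A match describes the letters only, and its part in the changes was not tested.

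Fosb, a close relative of Fos, was at 0.240, 0.620 and 1.97 RPKM (lowest, median and highest) under noise and 0.813, 3.74 and 5.40 RPKM in quiet (log2 difference -1.68 ± 0.25 SE, adjusted p = 0.0002). Egr1, a zinc finger factor induced by synaptic activity, was at 2.17, 8.75 and 13.2 RPKM under noise and 8.11, 25.4 and 30.0 RPKM in quiet (-1.53 ± 0.30 SE, adjusted p = 0.0023). Quiet library 9 was the lowest of its group for both. Without noise libraries 9, 13 and 17 the log2 differences were -1.34 for Fosb and -1.05 for Egr1. Btg2, an antiproliferative gene, fell by 1.33 ± 0.25 (log2, SE), and Dusp1, a phosphatase that switches off MAP kinases, by 1.19 ± 0.23. Arc, whose product acts at synapses, was at 4.52 to 13.2 RPKM under noise and 11.0 to 18.4 RPKM in quiet and fell by 1.10 ± 0.20.

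The 3 Nr4a orphan receptors fell by 1.06 ± 0.28 (Nr4a1), 0.93 ± 0.19 (Nr4a2) and 0.98 ± 0.18 (Nr4a3). Nr4a3 was the only member of the list whose groups did not overlap, at 0.286 to 0.984 RPKM against 1.26 to 2.87 RPKM. Over all genes, 11.4% had every noise library below every quiet library. Egr3 fell by 1.03 ± 0.31, Egr4 by 0.97 ± 0.28, Junb by 0.94 ± 0.24, Fosl2 by 0.79 ± 0.19, Jun by 0.72 ± 0.18 and Ier2 by 0.52 ± 0.18. After quantile normalization Egr4 (adjusted p = 0.051) and Ier2 (adjusted p = 0.37) no longer passed. Jund, a family member expressed steadily rather than on demand, was the 1 that rose (0.36 ± 0.12, adjusted p = 0.016), at 136 to 182 RPKM under noise and 115 to 141 RPKM in quiet. Npas4, a factor that answers calcium entry in neurons, was at 4.70 to 7.09 RPKM under noise and 3.79 to 9.80 RPKM in quiet, and did not pass (-0.38 ± 0.17, adjusted p = 0.054). Egr2, the remaining member, was too low to be tested, at 0 to 1.03 RPKM under noise and 0.137 to 1.32 RPKM in quiet.

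**Figure D3:**
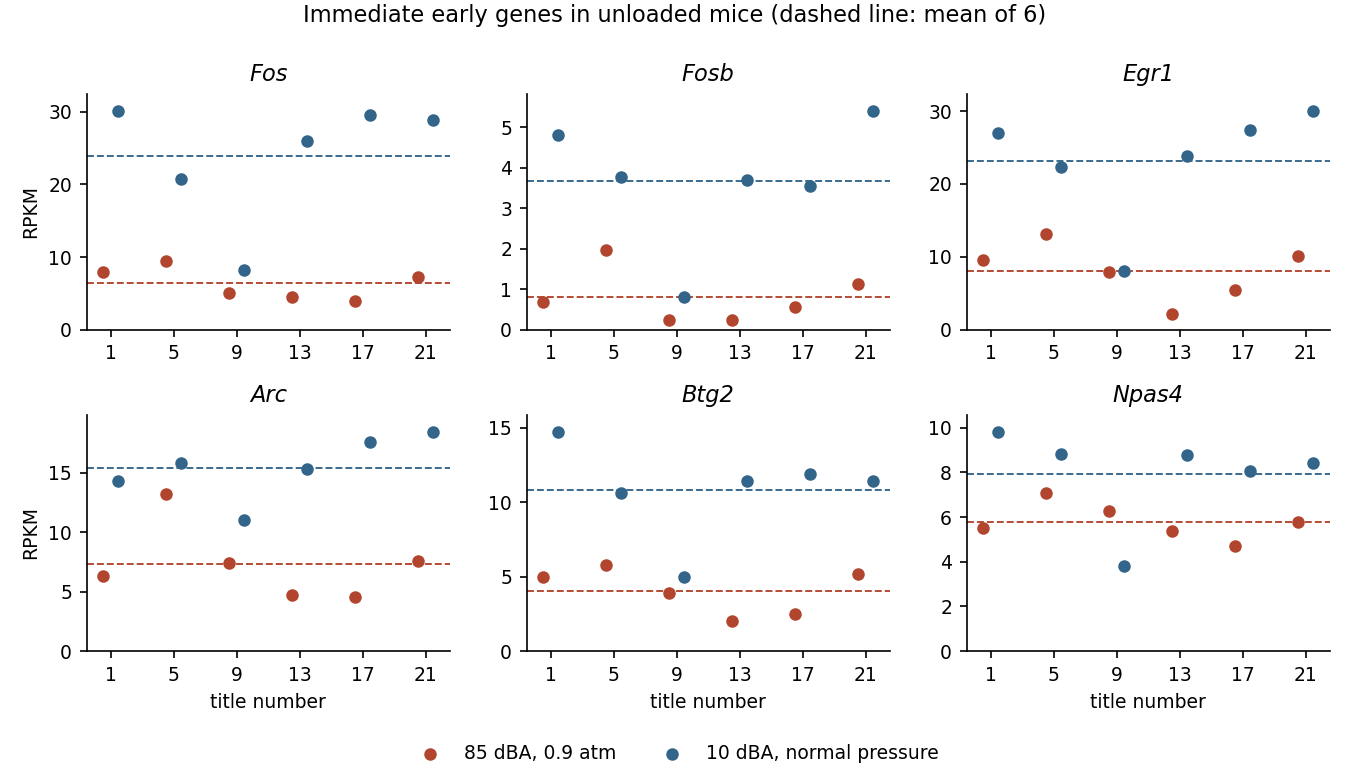
RPKM of 6 immediate early genes in each noise and quiet library, by title number, on linear axes from 0. Quiet library 9 lies near the noise libraries for Fos, Fosb and Egr1, and the other quiet libraries lie above them.

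Transcripts of the mitochondrial genome and of ribosomal proteins were higher on average. All 13 mitochondrially encoded genes rose (median 1.41), against 6.75% of all genes, and 0 of the 13 separated the groups. By title number the list's median was -0.49 for number 5, 0.02 for number 21 and 1.60 to 2.58 for the others. For their summed share the exact permutation test gave p = 0.048, and the paired permutation of signs p = 0.12. mt-Co1, a core subunit of cytochrome oxidase, was at 37598, 11127, 71370, 75406, 67533 and 16852 RPKM in noise libraries 1 to 21, and at 13579 to 16531 RPKM in quiet (log2 difference 1.39 ± 0.37 SE, adjusted p = 0.004). It was 0.53 without the 3 libraries and -0.00 after quantile normalization (adjusted p = 1), which holds the highest ranks equal by construction. The list's median was 0.00 after quantile normalization, with 2 called higher.

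Ribosomal protein genes of the cytosol rose in 30 of 36 cases and fell in 0, against 6.75% of all genes higher, and 28 of the 36 had every noise library above every quiet library, as had 2.89% of all genes. The median was 0.49, 0.43 after quantile normalization and 0.29 without the 3 libraries, and 23 of the 36 belong to the shortest 20% of genes. Rps19 was at 165, 231 and 305 RPKM (lowest, median and highest) under noise and 111, 130 and 137 RPKM in quiet, a rise of 0.85 ± 0.16 (log2, SE, adjusted p = 0.0023). Rpl37 rose by 0.76 ± 0.15, with 244 to 474 RPKM against 176 to 222 RPKM. Ribosomal protein genes have many processed pseudogenes, and how the authors' counting split such reads is not given in the sources used here. Of 32 nuclear-encoded respiratory chain subunits 13 rose and 3 fell (median 0.22, and 0.10 without the 3 libraries), with 23 of the 32 in the shortest class. Ndufa2 of complex I was at 290 to 546 RPKM under noise and 191 to 236 RPKM in quiet (0.83 ± 0.20, adjusted p = 0.0031).

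Of 11 pan-neuronal genes 10 fell and 0 rose (median -0.64), against 45.6% of all genes lower. After quantile normalization 9 fell, against 23.2% of all genes, and the median without the 3 libraries was -0.31. Snap25, of the machinery that fuses synaptic vesicles, was at 238, 299 and 359 RPKM under noise and 374, 482 and 519 RPKM in quiet, with no overlap (-0.62 ± 0.14 SE, adjusted p = 0.003), and its difference was -0.42 without the 3 libraries. Nefm, a neurofilament subunit, fell by 0.96 ± 0.20. Among 9 genes of GABA and glutamate transmission 7 fell, and 7 after quantile normalization, with a median of -0.73, and of -0.26 without the 3 libraries. Gad2, which makes GABA, was at 15.6, 22.1 and 42.9 RPKM under noise and 39.6, 49.8 and 52.7 RPKM in quiet (-1.01 ± 0.23 SE, adjusted p = 0.0029), and -0.50 without the 3 libraries. Slc17a6, the vesicular glutamate transporter of the hypothalamus, was at 9.31 to 18.5 RPKM against 20.3 to 33.0 RPKM (-0.98 ± 0.21, and -0.66 without the 3 libraries).

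Receptors and channels shared that direction, with 0 rises in each list. Of 14 GABA-A receptor subunits 11 fell, of 15 ionotropic glutamate receptors 9, of 23 potassium channels 20, and of 17 voltage-gated sodium and calcium channels 15, where 45.6% of all genes fell. After quantile normalization 7, 9, 14 and 9 fell, against 23.2% of all genes, and 1 glutamate receptor gene rose. Their medians were -0.56, -0.56, -0.65 and -0.59, and -0.27, -0.17, -0.27 and -0.16 without the 3 libraries. The lists differed in length: 14 of the 17 sodium and calcium channel genes and 8 of the 15 glutamate receptor genes are in the longest 20%. So are 9 of the 23 potassium channel genes and 3 of the 14 GABA-A subunit genes. In that class 72.2% of all genes were lower. Grin2b, an NMDA receptor subunit, fell by 1.06 ± 0.26 and Scn1a, a sodium channel, by 0.99 ± 0.25. Kcnc2, a fast potassium channel, was at 2.39 to 7.88 RPKM under noise and 7.66 to 13.8 RPKM in quiet (-1.10 ± 0.21).

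Glial markers were divided within their lists and endothelial markers gave falls only, where 6.75% of all genes rose and 45.6% fell. Gfap, the intermediate filament of astrocytes, rose by 0.65 ± 0.14 (adjusted p = 0.0024), at 110 to 179 RPKM under noise and 78.9 to 119 RPKM in quiet, and was 0.46 higher without the 3 libraries. In the same list the glutamate transporter Slc1a2 (-0.94 ± 0.21) and the gap junction gene Gja1 (-0.81 ± 0.17) fell, both without overlap, so that 2 of 12 astrocyte markers rose and 7 fell. Among 12 microglia markers 3 rose and 3 fell, with Aif1 at 0.59 ± 0.18 and P2ry12 at -0.66 ± 0.17. Oligodendrocyte markers gave 2 rises and 7 falls of 13, and endothelial markers 0 rises and 6 falls of 10, shares of falls near that of all genes. After quantile normalization these were 0 rises and 5 falls, and 1 rise and 3 falls, where 19.8% of all genes rose and 23.2% fell. Of 10 ependymal and tanycyte markers 3 rose and 2 fell. Rax, a homeobox gene of tanycytes, was at 1.17, 3.92 and 6.43 RPKM under noise and 1.03, 1.18 and 1.31 RPKM in quiet (1.25 ± 0.25 SE, adjusted p = 0.0024), with noise library 5 inside the quiet range, and its difference was 0.66 without the 3 libraries. Of 11 mural and meningeal fibroblast markers tested 1 rose and 1 fell (median 0.08), and the rise was Igf2, expressed in the meninges (0.96 ± 0.22).

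Of 7 blood cell markers tested 2 rose and 0 fell, where 6.75% of all genes rose and 45.6% fell. The 2 were the neutrophil genes S100a8 (1.39 ± 0.39) and S100a9 (1.38 ± 0.34). The summed level of the list was 1248 to 3459 RPKM under noise and 807 to 2634 RPKM in quiet. The pituitary list gave 1 rise, Pitx1 (0.96 ± 0.25), and 1 fall of 6, with summed levels of 7.58 to 21.7 RPKM and 6.18 to 9.95 RPKM. Markers of the striatum (0 rises and 1 fall of 10) and of cortex and hippocampus (0 rises and 2 falls of 8) had shares of falls below that of all genes. The choroid plexus gene Ttr was at 4.64 to 25.9 RPKM under noise and 3.98 to 270 RPKM in quiet and did not pass (-0.72 ± 0.82, adjusted p = 0.46). The part of tissue outside the hypothalamus in the other results was not tested, apart from the fit with the thalamus markers as a covariate, in which 843 genes were higher and 3527 lower.

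**Figure D4:**
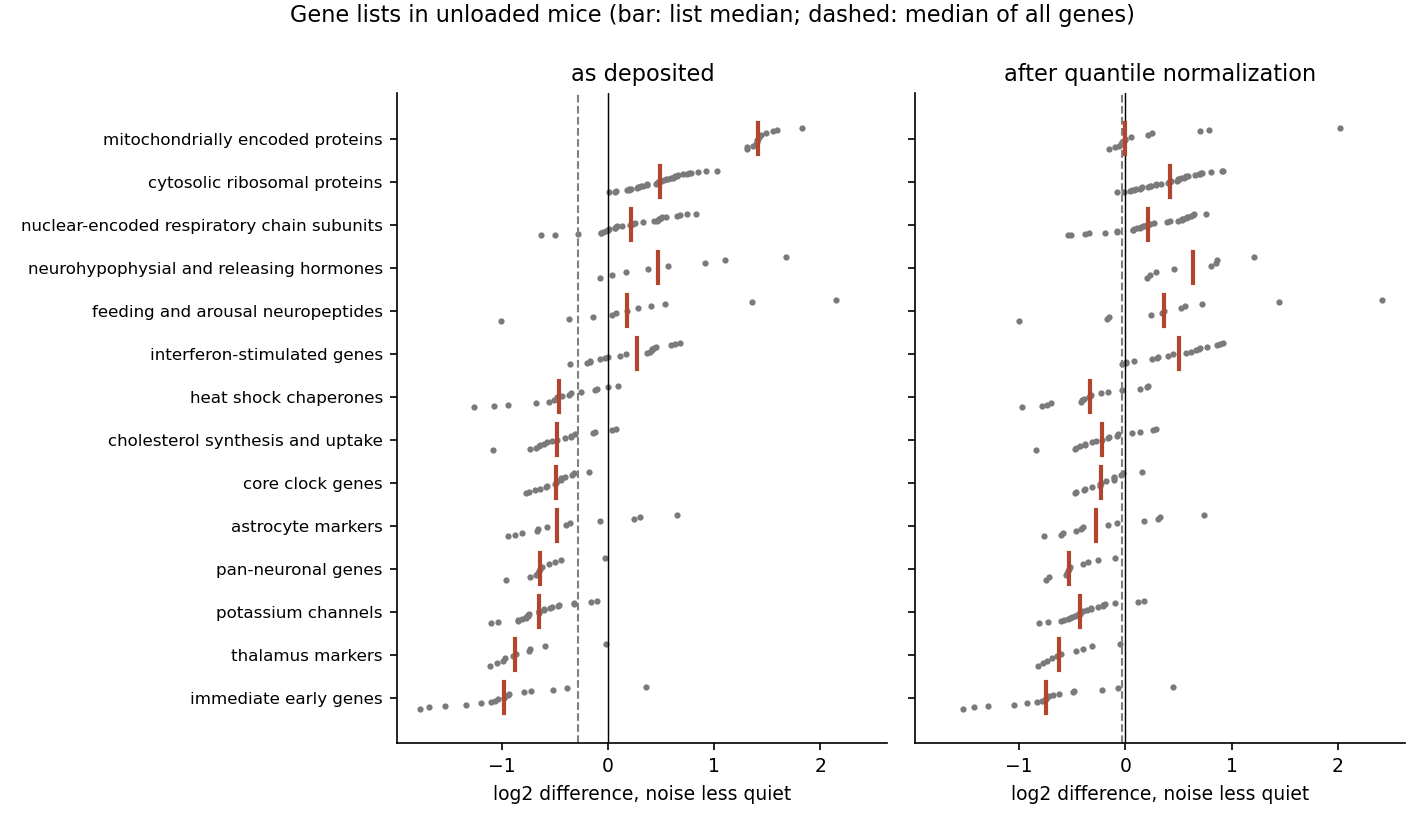
Log2 difference of noise with low pressure less quiet for the genes of 14 lists, as deposited (left) and after quantile normalization (right). Points are genes, bars are list medians and the dashed line is the median of all genes. The median of immediate early genes is -0.98 on the left and -0.75 on the right, and that of the mitochondrially encoded genes goes from 1.41 to 0.00.

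Of 16 heat shock chaperones 12 fell and 0 rose (median -0.45), against 45.6% of all genes lower. After quantile normalization 9 fell, against 23.2%, and without the 3 libraries the median was -0.23. Hspa1a, the inducible HSP70, was at 2.11, 4.90 and 9.52 RPKM under noise and 8.09, 12.3 and 20.9 RPKM in quiet (-1.26 ± 0.32 SE, adjusted p = 0.0038, and -0.77 without the 3 libraries), and Dnajb1, its co-chaperone, fell by 0.94 ± 0.21. Genes that glucocorticoids induce gave 2 rises and 6 falls of 16, and 2 of each after quantile normalization. Fkbp5, a standard readout of corticosteroid action, was at 2.19 to 13.2 RPKM and 4.11 to 8.20 RPKM (-0.09 ± 0.19, adjusted p = 0.69), and Sgk1 did not pass either (-0.69 ± 0.38, adjusted p = 0.12). The glucocorticoid receptor gene Nr3c1 fell without overlap, from 6.96 to 8.65 RPKM in quiet to 3.49 to 5.71 RPKM under noise (-0.73 ± 0.15, adjusted p = 0.0024, and -0.50 without the 3 libraries). It is 1 of 9 falls among 18 hormone and energy balance receptors, a share near that of all genes, and 0 rose. After quantile normalization 4 of the 18 fell, and the list's median was -0.42 as deposited and -0.13 without the 3 libraries.

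Of 16 targets of the hypoxia-inducible factor 0 rose and 9 fell, where 6.75% of all genes rose and 45.6% fell. The list's median was -0.32, close to the -0.28 of all genes. Vegfa, an angiogenic target, fell by 0.69 ± 0.21, and Bnip3 by 0.64 ± 0.14. Of 18 genes of the unfolded protein response 1 rose, Ddit3 (0.54 ± 0.13), and 9 fell, shares near those of all genes. NRF2 and antioxidant genes gave 2 rises and 5 falls of 15, glycolysis 1 rise (Gapdh, 0.40 ± 0.10) and 7 falls of 15, and cholesterol synthesis and uptake 0 rises and 13 falls of 17 (median -0.48). After quantile normalization 8 of those 17 fell and 1 rose, where 23.2% of all genes fell and 19.8% rose. Without the 3 libraries the median of the 17 was -0.20.

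Interferon-stimulated genes went the other way, with 8 of 18 rising and 1 falling (median 0.27), against 6.75% of all genes higher, and 13 rising after quantile normalization, against 19.8%. Ifitm3, an antiviral membrane protein also found in vessels, was at 33.0, 53.4 and 84.1 RPKM under noise and 30.2, 32.2 and 40.7 RPKM in quiet (0.68 ± 0.14 SE, adjusted p = 0.0024). Ifi27 rose by 0.37 ± 0.09 without overlap, and Bst2 by 0.63 ± 0.17. The list's median was 0.17 without the 3 libraries. Of 8 inflammatory and acute-phase genes 3 rose and 1 fell. Lrg1, a glycoprotein induced in inflamed vessels, was at 2.77 to 12.4 RPKM under noise and 1.90 to 4.01 RPKM in quiet (0.96 ± 0.23, adjusted p = 0.0031), and its difference was 1.06 without the 3 libraries.

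Among 15 core clock genes 10 fell and 0 rose (median -0.49), against 45.6% of all genes lower, and 6 fell after quantile normalization, against 23.2%. Without the 3 libraries the list's median was -0.14. Clock, the activator that pairs with Arntl, was at 2.19 to 4.79 RPKM under noise and 4.98 to 6.13 RPKM in quiet (-0.57 ± 0.15, adjusted p = 0.0037, and -0.30 without the 3 libraries). Per2 fell by 0.77 ± 0.24, at 1.60, 1.03 and 1.84 RPKM in noise libraries 9, 13 and 17 and 5.79 to 7.16 RPKM in the other 3, and was -0.10 without them. Neither Per1 (-0.40 ± 0.19, adjusted p = 0.066) nor the output factor Dbp (-0.50 ± 0.23, adjusted p = 0.062) passed.

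The remaining genes with large changes were of mixed kinds. Tnni3, a cardiac troponin subunit, was at 1.97 to 7.56 RPKM under noise and 0.581 to 1.50 RPKM in quiet (1.42 ± 0.27, adjusted p = 0.0023). Npff, which encodes a neuropeptide of the RF-amide family, rose by 1.40 ± 0.33, and Bpifa1, a secreted airway protein, by 1.87 ± 0.47, from 0.125 to 1.25 RPKM in quiet to 0.475 to 10.3 RPKM under noise. Prepl, a peptidase-like protein, was at 26.5, 29.3 and 29.8 RPKM in noise libraries 1, 5 and 21, at 7.48 to 9.41 RPKM in noise libraries 9, 13 and 17, and at 37.4 to 45.1 RPKM in quiet. Its log2 difference of -1.36 ± 0.35 (adjusted p = 0.0037) was -0.53 without the 3 libraries. The small GTPase gene Arl10 (-1.55 ± 0.44), Rnpc3, of the minor spliceosome (-1.36 ± 0.36), and the protocadherin Pcdhgc3 (-1.34 ± 0.34) had the same shape, with all 6 noise libraries below the quiet ones. The somatostatin receptor gene Sstr1 fell by 1.38 ± 0.35, with noise libraries 1 and 21 at 3.12 and 3.30 RPKM, inside a quiet range of 3.06 to 4.93 RPKM.

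The same exposure was also given to free-moving mice of that strain and age, in 2 late series (85 dBA at 0.9 atm, and 10 dBA at normal pressure) that share no library with these. There 2897 genes were higher (21.2%) and 4983 lower (36.4%). Of the 924 genes higher in unloaded mice 885 (95.8%) were also called higher in free-moving mice, which is 30.5% of the 2897, and 0 were called lower. Of the 6238 lower genes 4424 (70.9%) were called lower there as well, which is 88.8% of the 4983, and 21 were called higher. Across the 13685 genes the log2 differences correlated with r = 0.87, where genes are not independent and both contrasts include noise series of high mitochondrial share (28.3% ± 8.55, SD, n = 6, in free-moving mice). Avp was 1.86 higher in free-moving mice (log2), Oxt 1.40 and Npy 1.51, and Fosb was -0.93.

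The difference between both effects was tested as an interaction. Of the 13685 genes 66 (0.482%) had a higher and 534 (3.9%) a lower log2 difference, noise less quiet, in unloaded than in free-moving mice. Among the neuropeptides Cartpt (-0.71, adjusted p = 0.022) and Hcrt (-1.02 ± 0.27 SE, adjusted p = 0.022) differed. Hcrt rose with noise in free-moving mice, from 211 ± 52.2 to 379 ± 48.5 RPKM, and was 282 ± 53.5 in quiet and 262 ± 78.2 RPKM under noise in unloaded mice (SD, n = 6 each). Npas4 had 2.85 ± 0.847 RPKM in quiet and 6.45 ± 1.84 RPKM under noise in free-moving mice, and 7.95 ± 2.12 and 5.78 ± 0.821 RPKM in unloaded mice (interaction -1.43 ± 0.24 SE, adjusted p = 0.00033). For Avp (-0.18, adjusted p = 0.85), Oxt (-0.30, adjusted p = 0.60), Agrp (0.35, adjusted p = 0.76) and Fos (-0.77, adjusted p = 0.31) the interaction did not pass.

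The 6 highest interactions were Klhl11, Gabrb2, Pcdhac2, Kcna3, Gpr165 and Hs6st3, at 2.10, 2.10, 1.84, 1.83, 1.61 and 1.57. They rest on high levels in the quiet free-moving series. Gabrb2, a GABA-A receptor subunit, was at 7.35 ± 1.31 RPKM there and at 0.785 ± 0.619 RPKM in free-moving mice under noise, while unloaded mice had 1.56 ± 0.250 in quiet and 0.898 ± 0.423 RPKM under noise (SD, n = 6 each). Klhl11, of the Kelch family, was at 7.46 ± 0.520 RPKM in the quiet free-moving series and at 1.11 to 1.64 RPKM on average in the other 3. The orphan receptor Gpr165 was at 17.3 ± 2.09 RPKM in that series, 2.12 ± 2.09 RPKM in free-moving mice under noise, 5.38 ± 0.985 RPKM in unloaded quiet and 1.92 ± 1.11 RPKM in unloaded noise. Within unloaded mice Gabrb2 fell by 0.60 ± 0.17 (adjusted p = 0.0051, and 0.065 after quantile normalization), with noise library 17 inside the quiet range, and Gpr165 by 1.41 ± 0.29 (adjusted p = 0.0024), and Klhl11 did not pass (-0.25 ± 0.17, adjusted p = 0.22).

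Among the lowest were Gm49027, Col11a1, Npas4, Gp1bb and Ovgp1, at -1.58, -1.47, -1.43, -1.41 and -1.27. Ovgp1, an oviductal glycoprotein gene, averaged 1.49 ± 0.490 RPKM in quiet and 5.64 ± 1.52 RPKM under noise in free-moving mice, and 3.41 ± 0.684 and 4.41 ± 0.643 RPKM in unloaded mice. Gp1bb, a platelet receptor subunit, is listed at 0 in all 6 quiet free-moving libraries. Counts of interactions moved widely with the libraries used: leaving out title number 17 gave 19 higher and 49 lower genes, number 13 gave 33 and 68, number 1 gave 26 and 134, number 9 gave 58 and 168, number 21 gave 29 and 165, and number 5 gave 69 and 741.

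**Figure D5:**
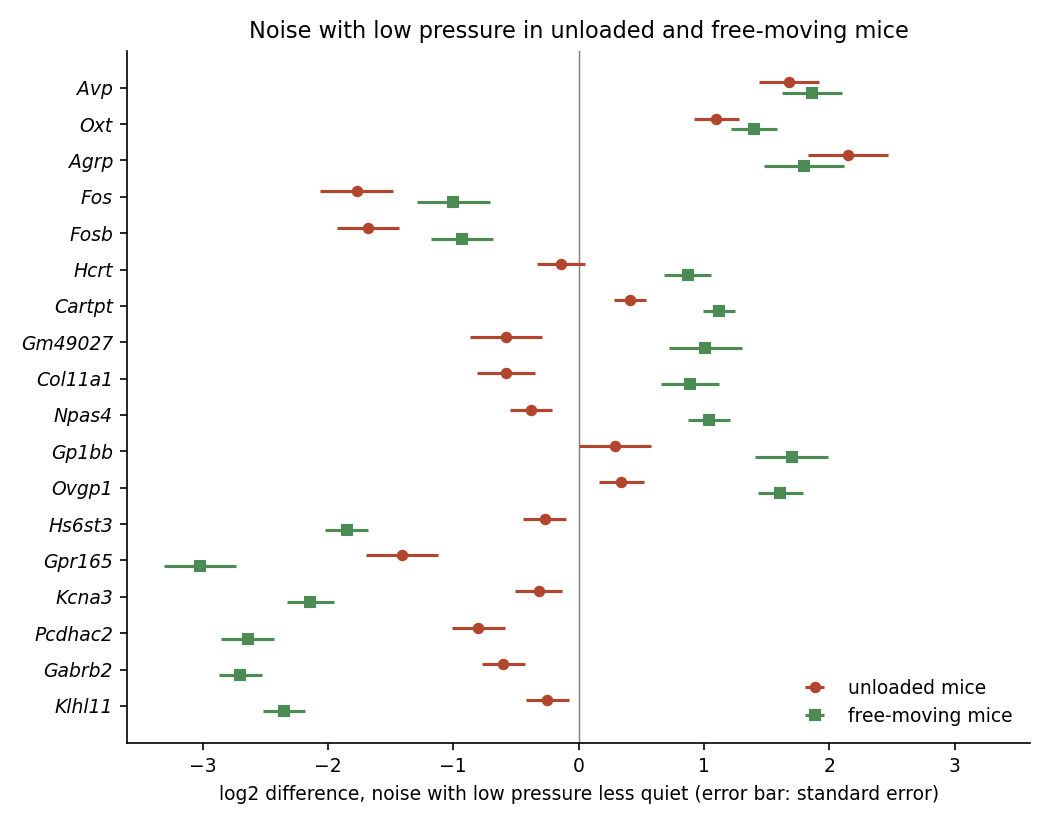
Log2 difference between noise with low pressure and quiet, with its standard error, for named genes in unloaded and in free-moving mice. Avp, Oxt and Agrp are right of 0 and Fos and Fosb left of 0 in both, and Gabrb2 and Gpr165 lie farther left in free-moving mice.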

How the data were processed

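The deposited table holds RPKM for 21558 genes in 48 libraries, each a pool of 3 mice; the authors computed these RPKM values with CASAVA 1.8 and HISAT among the tools, per the submitters' processing notes. RNA was extracted with Trizol and libraries followed standard Illumina protocols, per the labels' protocols. For the HISAT version, genome build and annotation: not given in the sources used here. Depth was estimated from the steps between low values at 35.8 to 41.3 M reads in the 12 libraries (65.5% to 69.2% of values up to 12 reads were whole within 0.02 reads, against 4% by chance), too few for a count test.

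Groups come from the titles and source labels. No pair of libraries in a series was a duplicate (highest r 0.9974). limma 3.58.1 (R 4.3.3) was fitted to log2(RPKM + 0.5), which understates the change of low genes, for 13685 genes with a mean of at least 0.5 RPKM over all 48 libraries, with terms for the 8 series and for the title number (leaving 35 residual degrees of freedom), an intensity trend and two-sided Benjamini-Hochberg adjustment over all 13685. Errors of log2 differences are standard errors of this fit. Nothing says more of the pools than that they are separate, so p-values measure the spread between pools. Title numbers were a term of the model, as the groups were given paired by number, although deviations of same-numbered samples correlated only at -0.131 to 0.254. The fit was tested on simulated data with the same spread in every group and no shift in mitochondrial share. These data differ there, as the SD of the share was 17.2 under noise and 1.32 in quiet, so the simulation does not cover that case.

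Positions and exon lengths are from GENCODE M21 (GRCm38), matched by symbol for 21191 genes. Named genes were the 12 largest rises and 12 largest falls among called genes with at least 1 RPKM in the higher group and 1 sign in at least 5 of 6 numbers, up to 4 called members of each of 46 lists by smallest p, a set of peptide, clock and stress genes given whatever their p, and the 6 largest interactions each way; some of these are not reported here. All 18 immediate early genes were also given. The groups, gene lists and tests were chosen with earlier results of these data known. Alternatives were another pseudocount, no filter, other scalings, covariates, array weights, fewer series, no title-number term and each library left out.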

Additional observations from a re-analysis of the deposited data

Results flagged for a closer look

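In 100 groups of 6 libraries checked for a value apart from the other 5, chance gives about 5%. Quiet library 21 had a mitochondrial share of 16.6%, where the other 5 quiet libraries had 12.7% to 13.9%, and it was apart for mt-Co1 (16531 RPKM, others 13579 to 13893) and mt-Atp6 (5052 RPKM, others 3542 to 4072). Noise library 13 was apart for mt-Atp8 (399 RPKM, others 7.91 to 93.5), for Gm5741 (1.47 RPKM, others 0 to 0.504) and for Klhl11 (0.782 RPKM, others 1.28 to 1.57). Quiet library 9 was low for Egr1 (8.11 RPKM, others 22.3 to 30.0) and Npas4 (3.79 RPKM, others 8.05 to 9.80). Quiet library 17 had 270 RPKM of Ttr, and the others 3.98 to 86.9 RPKM. Noise library 21 had 93.3 RPKM of Dbp (others 15.2 to 43.3), and noise library 17 had 1.74 RPKM of Gabrb2 (others 0.566 to 0.861).

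The effect of noise with low pressure differed between unloaded and free-moving mice, by limma's interaction term, for 16 of the named genes. The difference of log2 effects was positive for Klhl11 (2.10), Gabrb2 (2.10), Pcdhac2 (1.84), Kcna3 (1.83), Gpr165 (1.61), Hs6st3 (1.57) and Syt10 (1.04). It was negative for Gm49027 (-1.58), Col11a1 (-1.47), Npas4 (-1.43), Gp1bb (-1.41), Ovgp1 (-1.27), Hcrt (-1.02), Cartpt (-0.71), Ndufa6 (-0.61) and Ddit3 (-0.61). All of these but Syt10, Hcrt, Cartpt, Ndufa6 and Ddit3 came under the rule for the largest called interactions, so their passing was set by that choice. Over all 13685 genes the difference was called positive for 66 (0.482%) and negative for 534 (3.9%).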

How the results depend on the processing

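The main limit is the weight of noise libraries 9, 13 and 17, and depth, which is only an estimate here, gives no counting error. Without the 3 (chosen after seeing the data) limma called 0 genes higher and 0 lower in unloaded mice, with 3 noise libraries left. There 765 genes had an unadjusted p below 0.05, and the mitochondrial share differed by 5.14 points (exact permutation p = 0.52). The 33 called genes followed through all settings kept their direction, 14 of them at an unadjusted p below 0.05. All 33 had been called with the 3 libraries included. The largest rises and falls were also named for 1 sign in at least 5 of 6 title numbers. For those genes a kept direction was largely set by that choice, so it is no separate test. With the mitochondrial share as a covariate limma called 0 higher and 0 lower, with 2286 at an unadjusted p below 0.05, and 31 of the 33 kept their direction. Quantile normalization gave 2713 higher and 3175 lower genes, equal RPKM times length without mitochondrial genes 2301 and 3779, equal RPKM sums without them 1304 and 6354, array weights 3656 lower and the thalamus covariate 3527 lower. Leaving out 1 library at a time gave 610 to 1088 higher and 3773 to 7057 lower genes, and shares of 16.3 to 24.2 points, past the threshold only without noise library 5 or 21.

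The interaction had 37 higher genes with a pseudocount of 0.1, 512 after quantile normalization, 135 higher and 228 lower after rescaling to equal RPKM sums, 164 higher with equal RPKM times length, 261 and 2286 with the mitochondrial covariate, 3585 and 2703 with array weights, 111 and 1376 in the late series alone, and 424 higher without the 3 libraries. Leaving out a title number gave 19 to 69 higher and 49 to 741 lower. In free-moving mice the mitochondrial covariate gave 5180 higher and 1538 lower, and leaving out a number 2561 to 2865 and 4027 to 5131. The cause of these shifts was not tested.

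After quantile normalization mt-Co3 was 0.00, mt-Atp6 -0.04 and mt-Co1 -0.00. With the mitochondrial covariate Pmch was 0.14 and Col11a1 0.00, and array weights gave Fkbp5 0.42 (adjusted p = 0.027).

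Whether title numbers pair the libraries was not settled. Deviations of same-numbered libraries correlated at 0.254, -0.067, -0.131, 0.084, 0.147 and -0.008, and 3 of 6 noise libraries matched their own number best. Noise libraries also differed widely in mitochondrial share, so these correlations cannot decide it. Without the replicate block 869 genes were higher and 5899 lower, and with the block in the 2 series alone 770 and 4832. With the block, a sign-flip test of the mitochondrial share gave 19.6 points (exact permutation p = 0.12).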
